A study of Homo sapiens with 4 samples.

Results

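The sites described here lie around BCL6 and LPP, a pair of neighbouring genes on the long arm of human chromosome 3. They comprise every peak of the 2 deposited HNF1 peak lists with its midpoint between 187400 and 188700 kb of chromosome 3 in the hg19 build, a window of 1300 kb. The window held 11 of the 5060 peaks of replicate 1 and 14 of the 4955 peaks of replicate 2. Joined where they overlapped by at least 1 bp, these peaks made 16 distinct sites of 7108 in the whole series. The window was selected on the positions of peaks found in both lists, with its peaks already known, so the number of its sites and their recurrence are given as a description and without a test.

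The study profiled Caco2, an established cell line from a human colorectal adenocarcinoma that serves to study gut epithelium, by chromatin immunoprecipitation and sequencing (ChIP-seq). The labels describe 2 HNF1 immunoprecipitations and 2 inputs made without antibody, all from Caco2 cells grown in the same medium with no treatment named, and each immunoprecipitation has 1 peak list. Nothing in the labels says that the replicates were separate cultures, so their spread may be technical. The antibody label of both immunoprecipitations names HNF1, whereas the extraction text names a FOXA2 antibody, and which target applies was not tested. Replicate 1 had 11931439 tags and replicate 2 had 18469659 tags. As the lists hold peaks and no expression, the line could not be checked against cell type markers.

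HNF1 proteins are homeodomain transcription factors of liver, kidney, pancreas and gut epithelium that bind DNA as dimers, typically at an inverted repeat of the element GTTAAT. BCL6 encodes a zinc finger repressor of the BTB family, best known as the master regulator of germinal centre B cells and as a frequent partner in lymphoma translocations. LPP (lipoma preferred partner) encodes a LIM domain protein of the zyxin family that sits at focal adhesions and cell contacts and can move to the nucleus. The genes are transcribed away from each other, BCL6 on the minus strand at about 187439 to 187464 kb and LPP on the plus strand at about 187870 to 188608 kb, so that the interval between them is upstream of both. In the RefSeq gene order of GRCh38.p14, used here for names and order only, 7 long noncoding RNA genes and no other protein-coding gene stand between BCL6 and LPP. BCL6-AS1 and LINC01991 are among them. LPP-AS2 overlaps the LPP start, and LPP-AS1 and the microRNA gene MIR28 start inside LPP.

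The bases before the annotated starts of both genes are shown because neither outer gene start, as placed by the approximate hg19 bounds, had a peak on it: the nearest lay about 5 kb from that of BCL6 and 26 kb from that of LPP. They are printed 5′ to 3′ in the direction of the gene from RefSeq (GRCh38.p14), 250 bases each. The RefSeq table lists 2 starts of BCL6 and 7 of LPP. Shown are the outermost start of each gene and the 4 starts with a match to a searched motif, in capitals. Their GRCh38.p14 positions were not converted to the hg19 build of the peaks. Whether a site inside LPP lies on an inner start was therefore not analysed here. This holds also for the shared site at chr3:187930024-187930322, 60 kb past the LPP start.
BCL6, outermost start, chr3:187745469-187745718, minus strand: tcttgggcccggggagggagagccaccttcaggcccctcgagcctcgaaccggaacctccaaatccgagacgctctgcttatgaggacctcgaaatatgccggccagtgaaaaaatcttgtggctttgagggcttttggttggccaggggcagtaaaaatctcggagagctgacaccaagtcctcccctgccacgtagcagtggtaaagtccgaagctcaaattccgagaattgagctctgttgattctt
BCL6, inner start, chr3:187736502-187736751, minus strand: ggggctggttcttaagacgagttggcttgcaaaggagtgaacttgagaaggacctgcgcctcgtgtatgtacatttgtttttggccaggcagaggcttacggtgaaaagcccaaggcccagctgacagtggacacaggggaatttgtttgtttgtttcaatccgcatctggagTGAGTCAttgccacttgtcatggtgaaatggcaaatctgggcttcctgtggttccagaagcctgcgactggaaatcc
LPP, outermost start, chr3:188152771-188153020, plus strand: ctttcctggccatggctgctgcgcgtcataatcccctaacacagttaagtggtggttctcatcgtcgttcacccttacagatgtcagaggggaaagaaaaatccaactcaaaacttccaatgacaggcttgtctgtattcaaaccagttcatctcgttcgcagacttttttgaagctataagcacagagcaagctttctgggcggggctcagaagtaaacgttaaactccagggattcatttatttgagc
LPP, inner start, chr3:188212462-188212711, plus strand: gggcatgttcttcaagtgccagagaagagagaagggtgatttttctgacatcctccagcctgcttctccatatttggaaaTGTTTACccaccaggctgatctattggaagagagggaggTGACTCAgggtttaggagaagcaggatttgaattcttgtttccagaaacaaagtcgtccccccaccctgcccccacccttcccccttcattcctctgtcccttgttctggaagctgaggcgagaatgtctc
LPP, inner start, chr3:188568755-188569004, plus strand: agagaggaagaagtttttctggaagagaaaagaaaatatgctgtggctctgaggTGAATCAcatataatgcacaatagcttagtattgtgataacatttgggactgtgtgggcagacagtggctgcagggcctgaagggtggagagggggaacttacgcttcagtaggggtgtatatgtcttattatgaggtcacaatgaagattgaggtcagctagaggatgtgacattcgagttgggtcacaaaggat
LPP, inner start, chr3:188584088-188584337, plus strand: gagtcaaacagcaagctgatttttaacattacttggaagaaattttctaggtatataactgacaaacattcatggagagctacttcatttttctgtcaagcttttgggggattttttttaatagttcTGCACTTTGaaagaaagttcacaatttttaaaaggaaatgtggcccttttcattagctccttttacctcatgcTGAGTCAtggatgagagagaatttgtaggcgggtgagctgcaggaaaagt

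None of the 9 starts held the HNF1 inverted repeat (GTTAAT, any base, then ATTAA) with up to 2 mismatches, which 4.81% of 35116 promoters of the table did in the same 250 bases, both strands searched. The exact element GTTAAT, part of that repeat, was in none either, against 6.23% of promoters. The FOXA motif TGTTTAC was in 1 start, the inner LPP start at chr3:188212462-188212711, and in 2.98% of promoters. Its other form TGTTTGC was in 0 of the 9 starts and in 3.23% of promoters. The AP-1 motif TGANTCA was found in 4 of the 9 starts, 1 of BCL6 and 3 of LPP, and in 6.57% of promoters. The HNF4 motif CAAAGTCCA with up to 1 mismatch was in 1 start of LPP, at chr3:188584088-188584337, and in 5.94% of promoters. None of the 9 starts held the CDX2 motif TTTATNG, found in 8.93% of promoters. The GATA motif AGATAA was in 9.17% of promoters and likewise in none of these starts. The TCF motif ATCAAAG was in 2.26% of promoters and in none of them. Such matches describe letters in the printed windows. The sequences under the peaks themselves were not analysed here.

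Most sites lay in the interval between the genes and in the LPP body, and the strongest lay between the genes. The nearest shared site upstream of the BCL6 start was 209 kb from it, and that upstream of the LPP start 29 kb. Of the 16 sites, 9 were in both lists, 2 only in the replicate 1 list and 5 only in the replicate 2 list. The share in both lists over the whole series was 40.9% of distinct sites. The interval between the genes had 8 sites, of which 4 were in both lists, and 5 sites when replicate 2 was left out. LPP had 6, of which 4 were in both lists. BCL6 had none between its bounds. A single site, in replicate 1 alone, lay below BCL6, and 1 in both lists lay past the LPP end. Per Mb, the interval between the genes held 9.85 shared sites and LPP held 5.42, against 1.22 along chromosome 3 and 0.997 over all chromosomes between their first and last peaks.

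**Figure D1:**
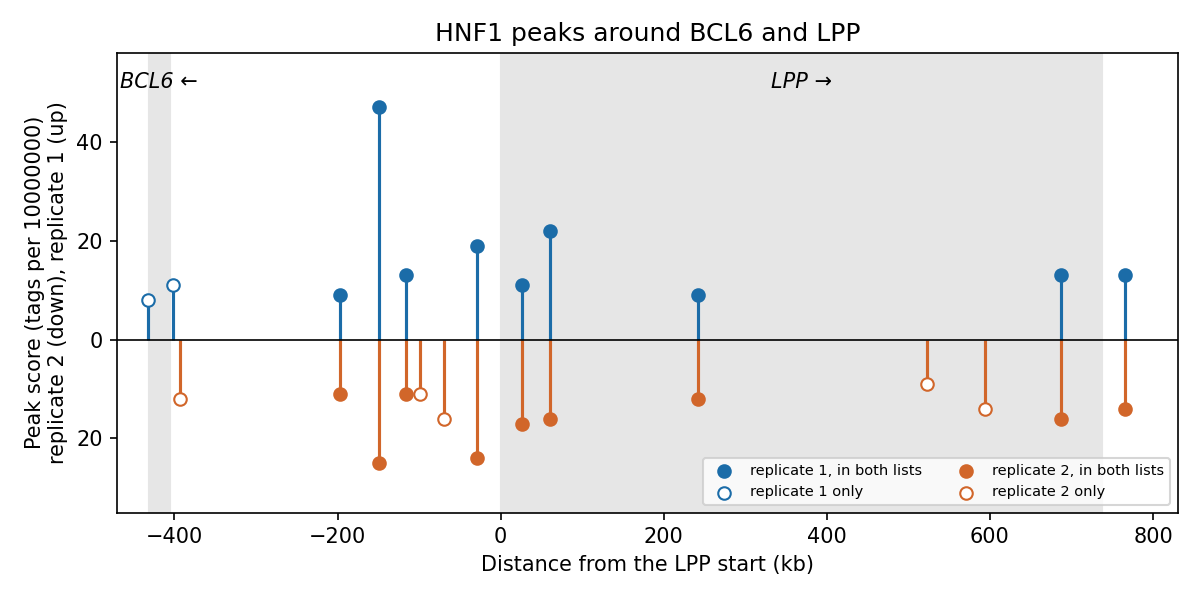
Peak scores (vertical axis, tags per 10000000; replicate 1 upward, replicate 2 downward) of all window peaks against the distance of their midpoints from the LPP start (horizontal axis, kb). Grey bands are BCL6 and LPP with arrows in the direction of transcription, filled points are peaks in both lists and open points peaks in 1 list. The highest pair, with scores of 47 and 25, lies 149 kb before the LPP start.

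Seen from replicate 1, 9 of 11 window peaks had a partner in the other list, or 81.8% (Wilson 95% interval 52.3% to 94.9%, counting error only), against 57.5% of all replicate 1 peaks. Seen from replicate 2, 9 of 14 had one, or 64.3% (38.8% to 83.7%), against 58.6% of all replicate 2 peaks. Recurrence was part of how the window was selected, so these shares describe its peaks only. On chromosome 3 alone the background was 61.5% of replicate 1 peaks and 56.8% of replicate 2 peaks.

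The score of a peak is the authors' tag number scaled to 10000000 tags per library and rounded. Its 95% interval here is an exact Poisson interval on the tags this implies, which covers counting error only. In replicate 1 the 11 window peaks scored 8 to 47 with a median of 13, beside a median of 12 for the whole list. In replicate 2 the 14 window peaks scored 9 to 25 with a median of 14, beside 11. Among peaks in both lists, the 9 of the window had a median of 13 in replicate 1, below the 15 of all shared peaks, and a median of 16 in replicate 2, above the 14 of all shared peaks. At or above the median of their list stood 6 of 11 and 13 of 14 window peaks. The scores are whole numbers with many ties. Of the whole replicate 1 list, 47.5% scored 11 or lower, below its median of 12. In the replicate 2 list, 53.0% scored 11 or lower, and window peaks tied at this median were counted as reaching it. The whole-list share at or above the replicate 2 median was not computed, so these counts are descriptions only. The highest 10% of a list included 1 window peak of replicate 1 and 2 of replicate 2. The site described next had the highest score of the window in both lists.

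The strongest site lay between the genes at chr3:187721203-187721429, about 257 kb upstream of the BCL6 start and 149 kb upstream of the LPP start. It scored 47 in replicate 1 (35.5 to 61.0), where it ranked 135 in the list and 12 on chromosome 3. In replicate 2 it scored 25 (18.3 to 33.3) and ranked 383 and 37. These scores rest on about 56 and 46 tags, and the midpoints of the peaks were 4 bp apart. This was the 1 pair of the 9 whose counting intervals did not overlap. How common that is among all 2907 shared pairs was not computed. The ratio of replicate 2 to replicate 1 at this site, 0.532, was above that of 12.6% of those pairs, inside their central 95%.

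The other 3 shared sites between the genes spanned low to high scores. The site nearest to LPP, at chr3:187840950-187841246 and 29 kb upstream of its start, scored 19 in replicate 1 (12 to 28.6) and 24 in replicate 2 (17.5 to 32.2). With rank 439 in replicate 2 it was nearly level there with the strongest site, which it did not match in replicate 1, where it ranked 1139. The site at chr3:187754229-187754455, 33.0 kb past the strongest one, scored 13 and 11. The site at chr3:187673170-187673396, 209 kb upstream of BCL6, scored 9 and 11 and was the weakest shared site of this interval in replicate 1.

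The remaining 4 sites of this interval were in 1 list each. A pair of these stood closest to BCL6. The replicate 1 peak at chr3:187468693-187468835, about 5 kb upstream of the BCL6 start, scored 11. The replicate 2 peak at chr3:187476161-187476387, about 12 kb upstream, scored 12. They lay 7.51 kb apart and so are separate sites, and neither recurred. The other pair came from replicate 2, at chr3:187770890-187771116 with a score of 11 and at chr3:187800875-187801101 with a score of 16 (10.8 to 22.9). The latter, 69 kb upstream of LPP, was the highest scored of the 5 sites in replicate 2 alone. A site missing from a list has no deposited value there, so its level in that library is unknown and was not set to 0.

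Within LPP, the 4 shared sites lay at 3.58%, 8.15%, 32.9% and 93.1% along the gene. The first, at chr3:187896272-187896498, lay 26 kb past the LPP start, or 3.58% along the gene, and scored 11 in replicate 1 (5.88 to 18.8) and 17 in replicate 2 (11.6 to 24.1). The next, at chr3:187930024-187930322 and 60 kb past the start, was the strongest LPP site in replicate 1, with a score of 22 (14.4 to 32.2) against 16 (10.8 to 22.9) in replicate 2. The third, at chr3:188112476-188112702, was 32.9% along the gene and scored 9 and 12. After it no shared site followed for 444.6 kb, the widest gap between shared neighbours of the window.

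That gap held the 2 LPP sites of replicate 2 alone. They stood at chr3:188392322-188392548 with a score of 9 and at chr3:188464165-188464391 with a score of 14, or 70.8% and 80.5% along LPP. No replicate 1 peak came within 165 kb of the first or 93.0 kb of the second. The last LPP site, at chr3:188557091-188557331 and 93.1% along the gene, was in both lists with scores of 13 and 16. The median score of the shared LPP sites was 12 in replicate 1 and 16 in replicate 2, beside 16 and 17.5 for the shared sites between the genes. With 4 sites in each set, whose scores ranged from 9 to 22 and from 9 to 47 in replicate 1, the sets overlapped and their medians were not tested.

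Past the 3′ end of LPP, by about 28 kb, a shared site at chr3:188635912-188636213 scored 13 and 14. Below BCL6, 1.43 kb outside its approximate 3′ bound, replicate 1 alone had a peak at chr3:187437499-187437641 with a score of 8, the lowest of its list in the window. That score corresponds to about 10 tags, where the calling threshold of the list was 9 tags. Since the gene bounds are approximate, this site could fall on either side of the BCL6 end.

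The edge of the window left out a close neighbour. A shared site at chr3:187385406-187385648 lay 14.5 kb below the lower edge and scored 13 and 18. The nearest sites on the inside of the edges were the replicate 1 peak below BCL6 and the shared site past LPP. Above the upper edge the nearest site was at chr3:188906405-188906663, 207 kb beyond it, with scores of 10 and 16.

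At 6 of the 9 shared sites the score was higher in replicate 2, which held for 36.2% of all shared pairs. The median log2 ratio of replicate 2 to replicate 1 was 0.29 over the 9 pairs and -0.17 over all pairs, whose standard deviation was 0.64. Each of the 9 ratios lay within the central 95% of all pairs, from -1.36 to 1.12. The difference between the medians was not tested. The 3 sites higher in replicate 1 were the strongest site, its neighbour at chr3:187754229-187754455 and the LPP site at chr3:187930024-187930322. The tag window was 142 bp wide in replicate 1 and 226 bp wide in replicate 2, so these ratios carry the calling settings as well.

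**Figure D2:**
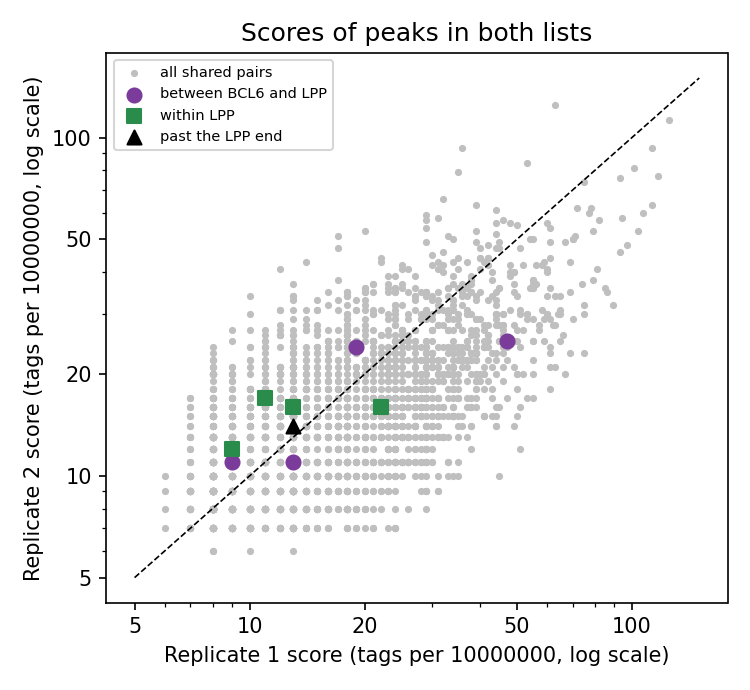
Score in replicate 1 (horizontal) against replicate 2 (vertical) of peaks in both lists, in tags per 10000000 on log axes, with the 2907 pairs of the whole series in grey and the 9 window pairs in colour by place. The dashed line marks equal scores, and 6 of the 9 window pairs lie above it.

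The peak midpoints of the replicates did not coincide equally well at all sites. At 5 of the 9 shared sites the midpoints were 1 to 15 bp apart, and at the last LPP site 56 bp. At the other 3 sites the distance was over 100 bp, beside 6.16% of all shared pairs. These were the site 29 kb before LPP, where the replicate 2 midpoint lay 112 bp further along the chromosome, the LPP site at chr3:187930024-187930322, where it lay 114 bp earlier, and the site past the LPP end, where it lay 117 bp earlier. The peaks there overlapped by 73, 71 and 68 bp. The displacement went in both directions. Whether each of these is 1 binding site or 2 adjacent ones was not tested, since the calling kept peaks of 1 list at least 284 bp (replicate 1) and 452 bp (replicate 2) apart. Fragment lengths in the calling were 76 bp for replicate 1 and 226 bp for replicate 2, and their part in the displacement was not tested.

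The density of shared sites was also described against windows of the same 1300 kb laid end to end along every chromosome. Of 2384 such windows, 4 held 9 or more shared sites, or 0.168%, the median window held 1 and the fullest held 11. Counting all distinct sites, 10 windows held 16 or more and the median was 2. The edges of these windows are fixed and can split a group of sites, whereas the BCL6 and LPP window was placed with its peaks known. These counts therefore do not measure how rare such a window is. When the stretch was instead started at a shared site, the sites around BCL6 and LPP with the neighbour below the edge formed a group of 10 shared sites over 1251 kb. Groups of at least 10 within this length numbered 9 in the series, of which 2 held more. Within these 9 groups the median score of the BCL6 and LPP group, 13 in replicate 1, was the second lowest in a range of 12.5 to 33. In replicate 2 its median of 16 had 3 groups above it, in a range of 10.5 to 28. It was 1 of 3 groups whose median was higher in replicate 2 than in replicate 1. With groups of the series ordered by their number of shared sites, the one at place 20 still held 9.

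**Figure D3:**
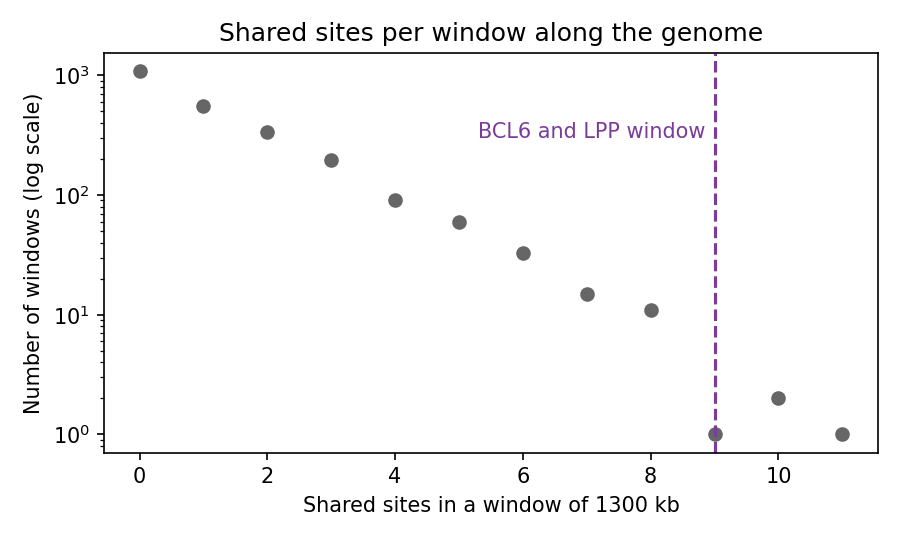
Number of 1300 kb windows (vertical, log axis) that held a given number of shared sites (horizontal), over 2384 windows laid end to end along the chromosomes. The dashed line marks the 9 shared sites of the BCL6 and LPP window, a number reached by 4 windows. Those have fixed edges, whereas the BCL6 and LPP window was placed with its peaks known.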

How the data were processed

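ChIP-seq peaks labelled as HNF1 in Caco2 cells were analysed from 2 libraries, each with 1 deposited list. Per the file headers, the authors ran HOMER findPeaks in factor mode, 1 library at a time, at a false discovery rate of 0.001, asking for a tag excess of 4-fold over the input and over the surrounding 10000 bp. Bowtie 1.0.0, HOMER 1.2 and hg19 are named in the submitters' processing notes. Replicate 1 had a peak size of 142 bp and a threshold of 9 tags, and replicate 2 had 226 bp and 13 tags, per the file headers. The deposited score is the tag number scaled by the authors to 10000000 tags and rounded, so 1 tag was worth 0.838 units in replicate 1 and 0.541 in replicate 2.

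Start positions were converted to count from 1. The window and approximate gene bounds were given in advance, and the members, lists and motifs were chosen with earlier results of these data known. Sites overlapping by at least 1 bp were joined. Every shared site and every site in 1 list is given. Scores were used within each list, and their ratios are descriptions. The joining code was run on simulated sites too far apart to overlap by accident, with partners moved by less than the peaks reach. That run checks the code only. No test between groups was possible with 1 list per library. Promoters were searched on both strands for 9 motifs with the mismatches stated. Motifs under peaks and related gene families, which need an hg19 sequence or annotation, were not analysed here. Other settings were the overlap rule, the better scored peaks, the window edges, the gene bounds and leaving out a replicate. Computations used Python 3.11.15, numpy 2.4.6, pandas 2.3.3, scipy 1.17.1 and matplotlib 3.10.9.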

Additional observations from a re-analysis of the deposited data

How the results depend on the processing

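Of 19 recomputed counts and medians of the BCL6 and LPP window, 18 stayed within 1.5 times the reported value. That limit was included, and the falls from 9 to 6 shared sites and from 6 to 4 LPP sites lay on it. The exception was the number of sites between the genes, 8 in both lists together, which was 7 without replicate 1 and 5 without replicate 2. Without replicate 1 or 2 the whole window had 14 or 11 sites and LPP had 6 or 4. Shared sites numbered 6 of 9 when midpoints had to lie within 100 bp or when 50% of both peaks had to overlap, and the same 3 displaced sites were lost under both rules. They also numbered 6 when only peaks at or above the median score of their list were kept. Under this rule the sites at chr3:187673170-187673396, chr3:187896272-187896498 and chr3:188112476-188112702 kept only their replicate 2 peak and so were no longer shared. No paired analysis was possible because each immunoprecipitation has a single peak list and the inputs entered only through peak calling. Motif searches under the peaks and counts at related gene families were not run. The tag thresholds correspond to scores of 7.54 in replicate 1 and 7.04 in replicate 2, so weaker binding was not detectable at this depth.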
